A study of Mus musculus with 11 samples.

Results

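The 8 genes described here, *Ucn3*, *Npy*, *Rbp4*, *Cd81*, *Cd9*, *Cfap126*, *Igf1r* and *St8sia1*, are markers used to tell mature from immature beta cells and to divide beta cells into subsets. They were chosen by name and found by their Ensembl gene IDs among the 19329 gene IDs of the deposited table, where all 8 have a row. The study profiled the RNA of whole islets by bulk sequencing, with 6 libraries of wild-type and 5 of PDX1P33T islets. PDX1P33T mice are homozygous for P33T, a proline-to-threonine exchange in the transactivation domain of the transcription factor PDX1, which was introduced with CRISPR-Cas9 into C57BL/6N mice and is carried by every cell of the animal. The study calls the wild-type mice littermates, but it also states that the cohort was bred by intercrossing homozygous animals. Whether the genotypes shared litters is thus not known, and a difference between genotypes cannot be told from one between litters. All mice were male, 14 weeks old and fed chow, and the islets were cultured after isolation. The study speaks of 6 mice for each replicate, so a library may be a pool, and n counts libraries throughout.

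Beta cells gain glucose-responsive insulin secretion after birth, and several of these genes mark that transition. Urocortin 3, the product of *Ucn3*, is released with insulin and acts on delta cells, which answer with somatostatin, and its rise accompanies beta cell maturation in mice. Neuropeptide Y (*Npy*) and the tetraspanin *Cd81* have been linked to immature or dedifferentiated beta cells. *Cfap126*, also called Flattop, is an effector of planar cell polarity whose expression divides mouse beta cells into subsets. The tetraspanin *Cd9* and the sialyltransferase *St8sia1*, which makes a disialylated ganglioside, were used to sort human beta cells into subtypes. The receptor *Igf1r* has been used as a marker of beta cell ageing, and *Rbp4*, the retinol carrier of plasma, is known to vary between beta cells and to be high in delta cells.

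The label of the samples was checked against defining islet genes. In the 5 PDX1P33T libraries *Ins2* was at 152890 ± 19886 FPKM (SD, n = 5), *Gcg* at 10618 ± 1336 FPKM, *Ppy* at 6218 ± 3096 FPKM and *Sst* at 5720 ± 775 FPKM. The libraries thus held RNA of beta, alpha, PP and delta cells together. In such bulk samples fewer cells of a type and less RNA per cell cannot be told apart. Values are in FPKM, reads scaled to the length of the gene and to the reads counted in the library, so that levels of different genes can be set side by side. The steps of the FPKM gave back the reads counted, which ranged from 19311937 to 37094286 per library in wild-type and from 23731684 to 36865206 in PDX1P33T.

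Most values of the wild-type libraries were deposited beside the wrong gene, and a wild-type value was used only where its row could be recognised. For *Npy*, *Cd9* and *St8sia1* the row was found by the wild-type reads in the study's supplementary list, and for *Igf1r* by its length and level. For *Ucn3*, *Rbp4*, *Cd81* and *Cfap126* no row met these rules, so 4 of the 8 genes were compared between the genotypes and all 8 were described in PDX1P33T. The supplementary list, of which the first 1749 rows are held here, is ordered by the difference between the genotypes. Of the 1673 genes placed by its reads, 87.1% had an unadjusted limma p under 0.05, against 4.91% of the 3053 genes placed by length and level. Being placed by reads thus selects on the very contrast tested, and the p-values of *Npy*, *Cd9* and *St8sia1* are given as a description.

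PDX1 is a homeodomain factor, and its class binds DNA at a TAAT core. The 250 bases before the start site are shown for *Ucn3*, the most abundant of the 8 genes, and for *Npy* and *Cd9*, the pair with the largest differences between the genotypes in size. They are given 5′ to 3′ in the direction of transcription, from RefSeq on GRCm38.p6, an older build than the GRCm39 named in the submitters' processing notes, with each TAAT, or ATTA where the core is on the other strand, in capitals.
*Ucn3*, chr13:3945350-3945599, minus strand: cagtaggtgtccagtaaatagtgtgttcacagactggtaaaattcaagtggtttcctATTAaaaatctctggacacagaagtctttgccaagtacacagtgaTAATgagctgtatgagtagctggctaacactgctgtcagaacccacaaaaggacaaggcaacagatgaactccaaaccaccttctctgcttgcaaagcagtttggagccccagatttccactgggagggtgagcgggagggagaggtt
*Npy*, chr6:49822460-49822709, plus strand: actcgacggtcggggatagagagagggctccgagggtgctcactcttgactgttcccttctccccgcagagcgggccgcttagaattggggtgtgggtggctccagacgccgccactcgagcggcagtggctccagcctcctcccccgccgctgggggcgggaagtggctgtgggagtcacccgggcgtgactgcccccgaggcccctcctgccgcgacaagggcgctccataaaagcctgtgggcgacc
*Cd9*, chr6:125494761-125495010, minus strand: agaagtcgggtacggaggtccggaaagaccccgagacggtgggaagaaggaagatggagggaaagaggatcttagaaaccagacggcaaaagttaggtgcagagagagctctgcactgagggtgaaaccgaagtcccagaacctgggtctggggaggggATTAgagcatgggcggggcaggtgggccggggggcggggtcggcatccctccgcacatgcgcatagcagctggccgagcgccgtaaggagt
*Ucn3* held 2 cores, the first letters of which lie 193 and 148 bases before the start, *Cd9* held 1 and *Npy* held 0. Of all 32851 mouse promoters in the table, 54.9% hold at least 1 core within the same 250 bases. *Ucn3* had a GC content of 46.4% in this stretch, *Cd9* 61.6% and *Npy* 69.2%, around a median of 52.4% over all promoters. No core was found before *Igf1r*, *St8sia1* or *Cd81*, while *Cfap126* held 1 at 2 of its 3 start sites and *Rbp4* 1 at 1 of its 2. The longer letters TAATTA, present before 4.84% of all starts, and CTAATG, present before 6.36% on either strand, were found before none of the 8 genes. Both contain the TAAT core.

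In PDX1P33T islets the 8 genes covered levels from nearly the top of the table for *Ucn3* to about the middle of all genes for *St8sia1*. *Ucn3* ranked 37th by mean level and *Rbp4* 136th among the gene IDs, whose median over the 18963 that passed the authors' 80% rule in PDX1P33T was 1.77 FPKM. *Cd81* ranked 1072nd, *Npy* 2794th and *Cfap126* 3276th, and they were followed by *Cd9* at 4822, *Igf1r* at 6047 and *St8sia1* at 8971. The order of the means was *Ucn3*, *Rbp4*, *Cd81*, *Npy*, *Cfap126*, *Cd9*, *Igf1r* and *St8sia1*. Neighbours in this order had separate ranges in all but 1 case. *Npy* and *Cfap126* overlapped, with *Npy* higher in 4 of the 5 libraries and a ratio of means of 1.201. The closest of the separate neighbours were *Cd9* and *Igf1r*, whose ratio of means was 1.42 and lay between 1.06 and 2.41 in single libraries.

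**Figure D1:**
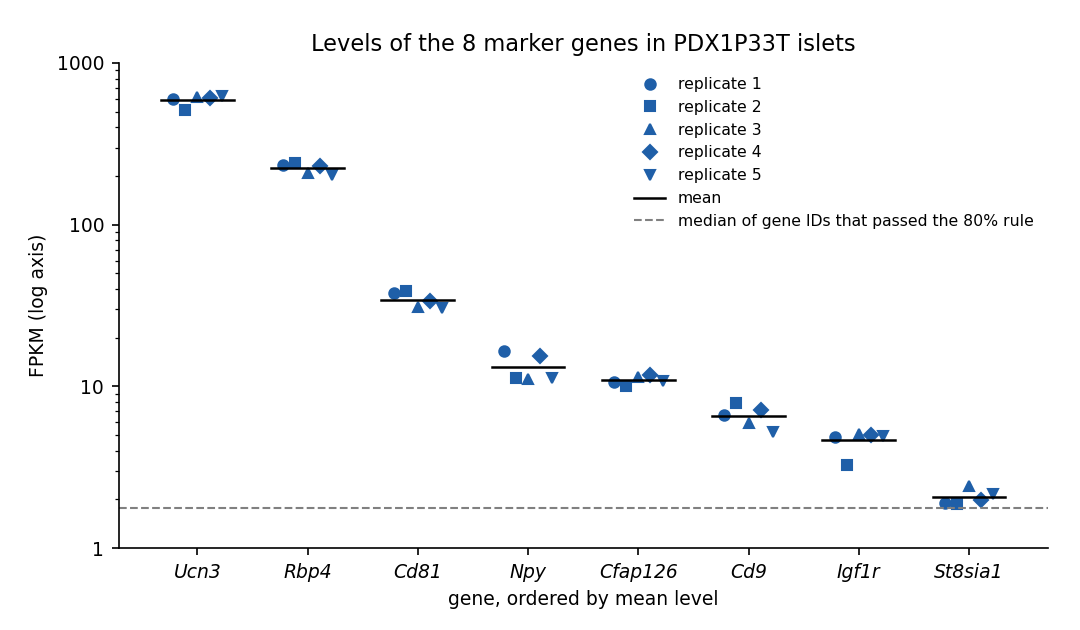
FPKM (log axis) of the 8 genes in the 5 PDX1P33T libraries, with a symbol for each replicate, a bar at the mean and a dashed line at the median of the gene IDs that passed the 80% rule in PDX1P33T, 1.77 FPKM. The means run from 591 FPKM for *Ucn3* to 2.08 FPKM for *St8sia1*, and only *Npy* and *Cfap126* overlap as neighbours.

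The spread between libraries also differed among the 8 genes. The coefficient of variation (CV, the SD divided by the mean) was 6.31% for *Cfap126*, 7.499% for *Ucn3* and 7.53% for *Rbp4*. *St8sia1* had 10.96% and *Cd81* 11.3%, while *Cd9* had 15.8%, *Igf1r* 16.6% and *Npy* 19.9%. The median CV of the 11190 gene IDs with a mean of at least 1 FPKM was 13.3%. Counting error alone would give *Npy*, with 152 to 252 reads per library, a CV of 6.88%, and *Ucn3*, with 18029 to 33894 reads, one of 0.627%. Among the 3398 genes within 2-fold of its level, 81.6% had a lower CV than *Npy*. The order of the CVs depended on the scaling. With the FPKM rescaled without the 10 most abundant genes, the CV was 5.46% for *Rbp4*, 6.49% for *Cd81* and 10.2% for *Cd9*, while that of *Cfap126* was 12.5% and that of *Ucn3* 14.4%. *St8sia1* then had 17.1%, *Npy* 21.6% and *Igf1r* 22.3%.

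*Ucn3*, the maturity hormone, was at 599, 514, 619, 604 and 622 FPKM in PDX1P33T replicates 1 to 5, with a mean of 591 ± 44.3 FPKM (SD, n = 5). Replicate 2 stood below the other 4 libraries, which lay within 23.4 FPKM of each other. The summed acinar markers, genes of the digestive enzyme-secreting cells, were at 134 FPKM in the same library and between 23.4 and 37.8 FPKM in the other 4. The 8 beta markers summed to 334492 FPKM in it, above the 236576 to 290930 FPKM of the other 4. That sum rests almost wholly on *Ins2*, *Ins1* and *Iapp*, at means of 152890, 83478 and 35412 FPKM in PDX1P33T. The next of the 8 markers was at 876 FPKM. Whether the acinar or the beta sum bears on the *Ucn3* value of replicate 2 was not tested. Without this library the mean of *Ucn3* was 611 FPKM.

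For wild-type, 1 row of the length of *Ucn3*, 1478 bases, had a similar level. It held 671, 772, 598, 533, 555 and 560 FPKM in replicates 1 to 6, a mean of 615 ± 91.0 FPKM (SD, n = 6). The rule for placing rows left it out because another gene of the same length, *Cox7a2l*, was at 274 FPKM in PDX1P33T, and a further one, *Prdx3*, at 40.2 FPKM. A looser rule, chosen after these values were seen, would take it as *Ucn3*, since its mean was 2.24 times that of *Cox7a2l* and 1.04 times that of *Ucn3*. Under this rule the mean in PDX1P33T was 0.961 times that in wild-type and the ranges overlapped. The rule takes only a row within 1.5-fold of the mean in PDX1P33T, so it fixes a ratio near 1, and no test was made on it. Among genes whose true row was known, the looser rule placed 534 of 536 correctly.

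The receptors of the urocortin system were at low levels. Of the 7 genes listed, 3 were measured and 1 compared. *Crhr1*, a receptor of the family, was at 0.355 ± 0.0780 FPKM and *Crhr2*, the receptor that urocortin 3 prefers, at 0.121 ± 0.0760 FPKM (SD, n = 5), both without a wild-type row. *Sst*, the hormone released by the delta cells on which urocortin 3 acts, was at 7323 ± 2003 FPKM in wild-type and 5720 ± 775 FPKM in PDX1P33T, a log2 fold change of -0.32.

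*Cfap126*, the planar cell polarity effector, was at 10.7, 10, 11.4, 11.8 and 10.8 FPKM in PDX1P33T replicates 1 to 5, with a mean of 10.9 ± 0.690 FPKM (SD, n = 5). The highest library was 1.18 times the lowest. No wild-type row had its length of 1774 bases, so its wild-type level is not given. *Foxj1*, the master regulator of motile cilia and the most abundant of the 3 markers of cilia-bearing epithelium measured of 4, was at 0.226 ± 0.0759 FPKM, far below *Cfap126*.

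Of 28 planar cell polarity genes 25 were measured and 8 compared, 6 with a positive and 2 with a negative log2 fold change around a median of 0.19. *Wnt4*, a secreted ligand, was at 120 ± 30.4 FPKM in PDX1P33T and *Ror2*, a receptor for Wnt ligands, at 6.55 ± 0.512 FPKM (SD, n = 5), both without a wild-type row. Of 29 cilium genes 25 had a row, 1 of them listed at 0 in every PDX1P33T library, which can come from the authors' filter on replicates. Compared were 5, 4 with a positive and 1 with a negative log2 fold change around a median of 0.28. *Cfap36* was at 27.6 ± 2.61 FPKM in wild-type and 32.8 ± 5.79 FPKM in PDX1P33T, and *Rfx6*, a transcription factor of islet cells, at 9.77 ± 1.84 and 12.9 ± 2.89 FPKM. *Ccdc40*, needed to assemble motile cilia, was the only one of the 5 whose groups did not overlap, with 0.726 to 0.970 FPKM in wild-type and 0.461 to 0.710 FPKM in PDX1P33T. Its log2 fold change was -0.43, with an adjusted limma p of 0.499. It was placed by reads, among which 12.7% of genes had separate groups, beside 4.85% of all genes tested.

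*Rbp4*, the retinol carrier, was at 234, 239, 207, 231 and 202 FPKM in PDX1P33T replicates 1 to 5, with a mean of 223 ± 16.8 FPKM (SD, n = 5). Replicates 3 and 5 were below the other 3. *Ucn3* was highest in the same pair of libraries. In wild-type the only rows of its length, 1343 bases, were at 1.16, 1.05 and 0.0653 FPKM, and none was taken for it.

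Of 22 genes of the retinol system 16 were measured and 3 compared, 2 with a negative and 1 with a positive log2 fold change. *Ttr*, transthyretin, which carries RBP4 in plasma and is abundant in alpha cells, was at 542 ± 34.5 FPKM in PDX1P33T, and *Rxrb*, a nuclear receptor of the retinoid family, at 9.95 ± 1.91 FPKM (SD, n = 5). Neither had a wild-type row.

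*Npy* showed the largest difference in size of the 4 genes compared. In wild-type it was at 14.0, 40.6, 38.1, 20.2, 18.0 and 25.6 FPKM in replicates 1 to 6, with a mean of 26.1 ± 10.97 FPKM (SD, n = 6). In PDX1P33T it was at 16.6, 11.3, 11.1, 15.4 and 11.3 FPKM in replicates 1 to 5, with a mean of 13.1 ± 2.61 FPKM (SD, n = 5). All wild-type libraries but replicate 1 were above the highest PDX1P33T library, so the groups overlapped through that 1 library, and wild-type replicates 2 and 3 stood highest. The log2 fold change, on the log2(FPKM + 0.1) scale and as PDX1P33T minus wild-type, was -0.90 with a 95% interval from -1.47 to -0.34. limma gave an unadjusted p of 0.00447 and an adjusted p of 0.499, between 0.153 and 1 over the alternatives tried, and an exact two-sided permutation test gave 0.0130, where the smallest possible is 0.0043. Without wild-type replicates 2 and 3 together, an alternative added after the values were seen, the log2 fold change was -0.55 and the adjusted p 0.986.

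None of the 4 genes compared was called, that is, reached an adjusted p of at most 0.05 with a fold change of at least 1.5. Of the 4726 genes tested, limma called 4, or 0.0846%, with 0.0423% higher and 0.0423% lower in PDX1P33T. Among the genes placed by reads it called 0.179%. At an unadjusted p under 0.05 there were 3 of the 4 genes, *Npy*, *Cd9* and *St8sia1*, beside 34% of all genes tested, and limma with voom weights on the recovered reads also called 0 of the 4. The groups of none of the 4 were separate, whereas those of 4.85% of all genes tested were, 2.31% higher and 2.54% lower in PDX1P33T. Among the genes placed by length and level, as *Igf1r* was, 0.524% were separate.

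**Figure D2:**
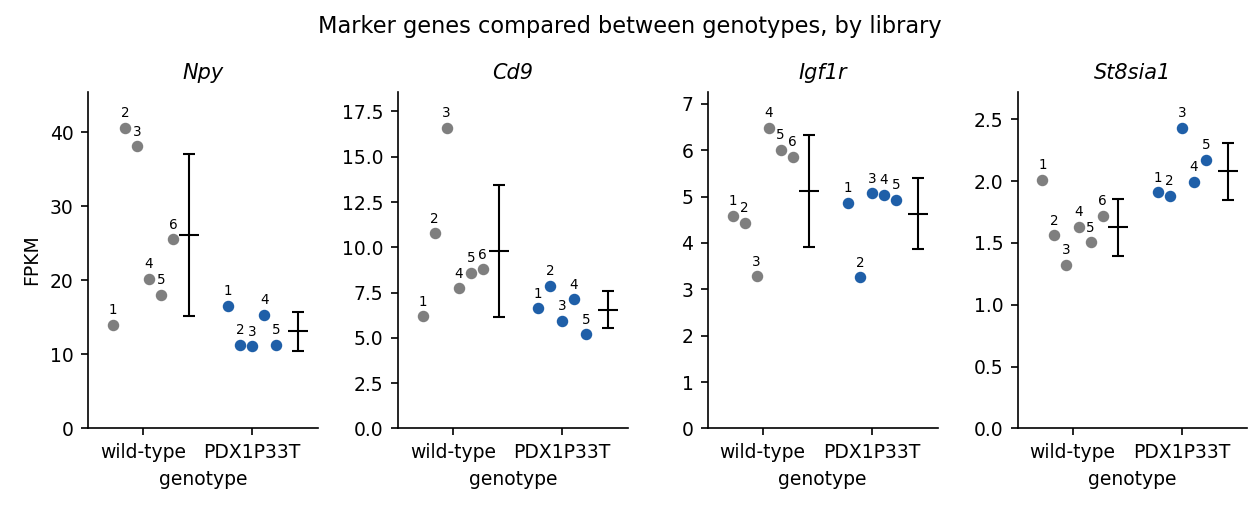
FPKM of the 4 genes compared, by genotype, with a point for each library labelled by its replicate number and the mean ± SD beside it. Wild-type replicates 2 and 3 are highest for *Npy* and *Cd9*, wild-type replicate 3 is lowest within its group for *Igf1r* and *St8sia1*, and the groups overlap in every panel.

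Neuropeptide Y belongs to a family with peptide YY and pancreatic polypeptide, and 5 of 10 genes listed for it were measured and 4 compared, 2 with a positive and 2 with a negative log2 fold change. *Ppy*, made by PP cells, was at 9281 ± 3169 FPKM in wild-type (SD, n = 6) and 6218 ± 3096 FPKM in PDX1P33T (SD, n = 5). *Pyy* was at 5413 ± 1926 and 4554 ± 1015 FPKM. Neither was called. The receptors listed for the family were looked for by name and had no row in the deposited values, so their levels are not given.

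*Cd9* was at 6.19, 10.8, 16.6, 7.74, 8.60 and 8.79 FPKM in wild-type replicates 1 to 6, with a mean of 9.78 ± 3.66 FPKM (SD, n = 6). In PDX1P33T it was at 6.62, 7.88, 5.95, 7.13 and 5.20 FPKM in replicates 1 to 5, with a mean of 6.56 ± 1.03 FPKM (SD, n = 5). Wild-type replicates 2 and 3 were again the highest, and 4 wild-type libraries were above the highest PDX1P33T library. The log2 fold change was -0.51 with a 95% interval from -0.97 to -0.058, an adjusted limma p of 0.519, between 0.188 and 1 over the alternatives, and an exact two-sided permutation p of 0.0390. Without wild-type replicates 2 and 3 it was -0.25, with an adjusted p of 1. In GENCODE vM21, 218 exonic bases of *Cd9* overlap *Gm26728* on the other strand, and without known strandedness of the libraries the reads there cannot be assigned.

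*Cd81*, the other tetraspanin, was at 37.9, 39.1, 30.9, 33.8 and 30.6 FPKM in PDX1P33T replicates 1 to 5, with a mean of 34.5 ± 3.89 FPKM (SD, n = 5), 5.26 times that of *Cd9*. Replicate 2 was highest and replicate 5 lowest for both tetraspanins. In wild-type the rows of its length, 2879 bases, that lay near its level were at 60.2 and 28.2 FPKM. They could belong to *Cd81* or to *Gjd2*, *Leprotl1* or *Gps1*, which have the same length and were at 70.7, 39.9 and 26.7 FPKM in PDX1P33T, so no row was taken. *Cd81* shares 104 exonic bases with *R74862* on the other strand, which was at 0.743 FPKM.

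Of the 34 tetraspanins and partners listed 31 were measured and 10 compared, 5 with a positive and 5 with a negative log2 fold change. *Cd63*, a tetraspanin of lysosomes and granules, was the most abundant, at 213 ± 15.6 FPKM in wild-type and 266 ± 66.0 FPKM in PDX1P33T. It was followed by *Tspan13*, at 110 ± 9.02 and 126 ± 21.6 FPKM. *Tspan15* and *Tspan14* both serve as partners of the protease ADAM10 (a sheddase of the cell surface), and each had groups that did not overlap, in opposite directions. *Tspan15* was at 6.60 to 7.28 FPKM in wild-type and 8.05 to 9.02 FPKM in PDX1P33T, with a log2 fold change of 0.27 and an adjusted limma p of 0.499. *Tspan14* was at 6.74 to 14.7 FPKM in wild-type and 4.802 to 6.68 FPKM in PDX1P33T, with a log2 fold change of -0.44 and an adjusted limma p of 0.527. Both were placed by reads, among which 12.7% of genes had groups that did not overlap.

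*St8sia1*, the ganglioside sialyltransferase, was the only one of the 4 genes with a higher mean in PDX1P33T. It was at 2.01, 1.56, 1.32, 1.63, 1.505 and 1.72 FPKM in wild-type replicates 1 to 6, with a mean of 1.63 ± 0.231 FPKM (SD, n = 6). In PDX1P33T it was at 1.91, 1.88, 2.43, 2.00 and 2.17 FPKM in replicates 1 to 5, with a mean of 2.08 ± 0.228 FPKM (SD, n = 5). Only wild-type replicate 1 reached the range of the PDX1P33T libraries. The log2 fold change was 0.34 with a 95% interval from 0.094 to 0.59, an adjusted limma p of 0.499, between 0.166 and 1 over the alternatives, and an exact two-sided permutation p of 0.0173. Each library held 239 to 748 reads of *St8sia1*. *Gm7457*, which shares 149 exonic bases with it on the other strand, was at 0.0294 FPKM.

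All 23 genes listed for ganglioside synthesis and breakdown were measured, and 6 were compared, 5 with a negative and 1 with a positive log2 fold change around a median of -0.28. *Hexa*, a subunit of the lysosomal enzyme that degrades a ganglioside, was at 175 ± 7.46 FPKM in PDX1P33T, and *Neu1*, a lysosomal sialidase, at 34.0 ± 1.06 FPKM (SD, n = 5), both without a wild-type row. The median log2 fold change of all 4726 genes tested was -0.06.

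*Igf1r*, the receptor tyrosine kinase for insulin-like growth factors, was at 4.59, 4.44, 3.28, 6.48, 6.01 and 5.86 FPKM in wild-type replicates 1 to 6, with a mean of 5.11 ± 1.21 FPKM (SD, n = 6). In PDX1P33T it was at 4.87, 3.26, 5.06, 5.03 and 4.93 FPKM in replicates 1 to 5, with a mean of 4.63 ± 0.769 FPKM (SD, n = 5). Replicate 2 of PDX1P33T stood apart from the other 4, which lay within 0.199 FPKM of each other, and all PDX1P33T libraries but that one were inside the wild-type range. The log2 fold change was -0.12 with a 95% interval from -0.51 to 0.26, an adjusted limma p of 1 and an exact two-sided permutation p of 0.433. The log2 fold change was -0.0030 without PDX1P33T replicate 2, -0.24 without wild-type replicate 3 and -0.31 where wild-type replicates 2 and 3 were both left out, with an adjusted limma p of 1 each time. Its row was placed by a rule that needs group means within 4-fold of each other, so a larger difference could not have been seen.

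Of 29 genes of IGF and insulin signalling 27 had a row, 1 of them listed at 0 in every PDX1P33T library. This 0 too can come from the authors' filter on replicates. Compared were 8, 6 with a negative and 2 with a positive log2 fold change. *Igfbp7*, a secreted binding protein, was at 163 ± 9.36 FPKM in PDX1P33T and *Akt1*, a kinase downstream of the receptor, at 43.8 ± 4.00 FPKM (SD, n = 5). The ligands were at low levels, with *Igf1* at 0.0695 FPKM and *Igf2* at 0.115 FPKM.

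Of the 26 beta cell maturity genes listed 24 were measured and 11 compared, 5 with a positive and 6 with a negative log2 fold change around a median of -0.06. *Iapp*, the amyloid peptide secreted with insulin, was at 24983 ± 6390 FPKM in wild-type and 35412 ± 11803 FPKM in PDX1P33T. *Chga*, a granule protein of endocrine cells, was at 4921 ± 804 and 5167 ± 726 FPKM. The groups of all 11 genes overlapped, and the log2 fold changes ran from -0.45 to 0.50.

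Of 18 genes of immature and ageing beta cells 16 were measured, but 2 were compared. *Aldh1a3*, an aldehyde dehydrogenase known from dedifferentiated beta cells, had groups that did not overlap, with 0.0927 to 0.336 FPKM in wild-type and 0.361 to 0.475 FPKM in PDX1P33T. Its log2 fold change was 0.70, with an adjusted limma p of 0.499. The other gene compared was *Hk1*, a hexokinase kept low in mature beta cells, whose mean was 2.71 ± 1.54 FPKM in wild-type and 1.49 ± 0.412 FPKM in PDX1P33T. *Bambi*, a pseudoreceptor of the TGF-beta family, was among the abundant genes of the list at 9.49 ± 1.64 FPKM in PDX1P33T (SD, n = 5). No gene of the 10 lists was called, beside 0.0846% of all genes tested. Of the 58 genes of the lists compared, 17 had an unadjusted limma p under 0.05, beside 34% of all genes tested, and 14 of these were among the 17 placed by reads, a class in which 87.1% did. The groups of 4 of the 58 did not overlap, *Aldh1a3*, *Ccdc40*, *Tspan14* and *Tspan15*. All 4 were placed by reads, where 12.7% of genes had separate groups, against 0.524% of those placed by length and level.

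**Figure D3:**
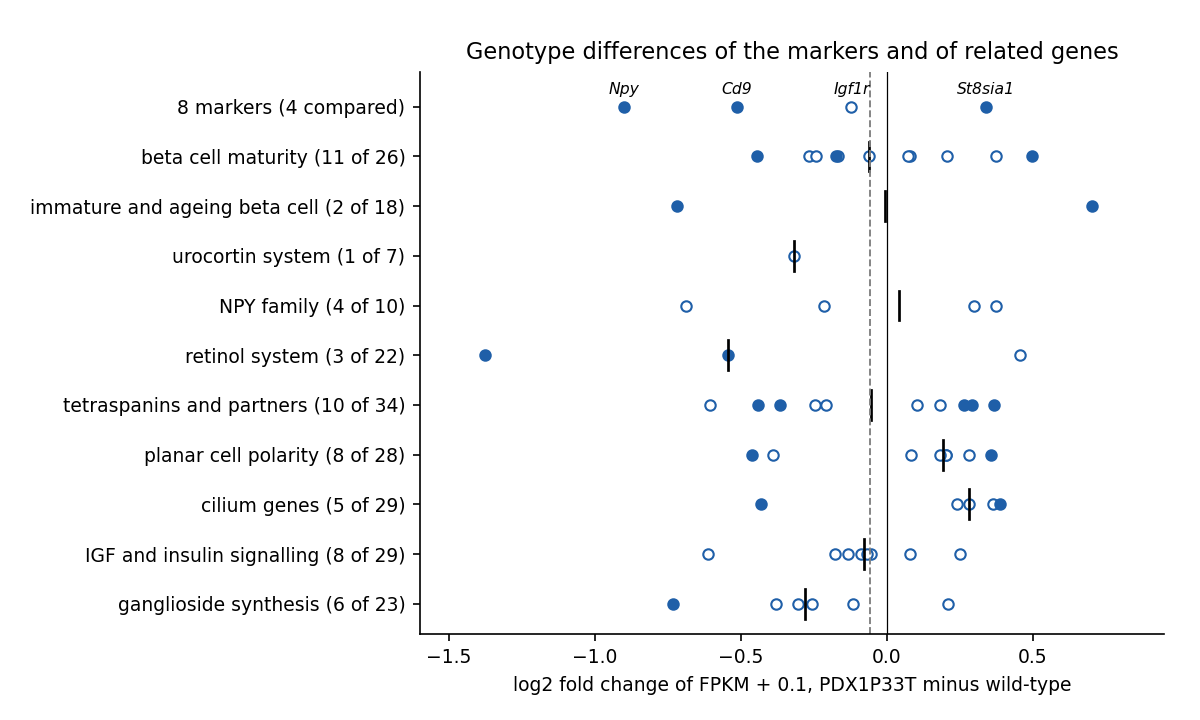
Log2 fold change of FPKM + 0.1, PDX1P33T minus wild-type, of the 4 marker genes compared and of the compared genes of 10 related lists, with the number compared of the number listed. Filled points were placed by reads and open points by length and level, short bars are list medians, and the dashed line is the median of all genes tested, -0.06. The lowest point is *Rbp7*, at -1.38, and *Npy* lies further from 0 than *Cd9*, *Igf1r* and *St8sia1*.

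The endothelial, immune, stromal, Schwann and neural markers compared had negative log2 fold changes, and the libraries high in *Npy* and *Cd9* were also high in several of them. The 8 endothelial markers compared of 10 listed had a median log2 fold change of -0.63, the 4 of 12 immune markers -0.58, the 4 of 10 stromal markers -0.58 and the 4 of 12 Schwann and neural markers -0.82. All 20 were negative, also under both other scalings, and limma called none of them. Of the 20, 10 were placed by reads and had a median of -0.66. All genes placed by reads had a median of -0.32, and those placed by length and level one of 0.04. Part of the negative sign thus goes with how the rows were placed. Without wild-type replicates 2 and 3 together, 16 of the 20 were negative and their median was -0.27, against -0.63 with all libraries. The groups of *Ngfr*, a neurotrophin receptor of Schwann cells, did not overlap, with 0.772 to 3.66 FPKM in wild-type and 0.293 to 0.695 FPKM in PDX1P33T. Its log2 fold change was -1.45, with an adjusted limma p of 0.457, and it was placed by reads. The study, which used DESeq2, reported *Ngfr* among its significantly downregulated genes. The most abundant markers of these lists in PDX1P33T were *Plvap* at 56.0 FPKM, *C1qa* at 72.4 FPKM, *Sparc* at 45.3 FPKM and *Th* at 10.7 FPKM, none of them with a wild-type row. Of the other cell types, the most abundant acinar marker was *Bhlha15* at 12.9 FPKM and the most abundant duct marker *Epcam* at 81.9 FPKM. The duct list was mixed in PDX1P33T, with *Cftr* at 0.0202 FPKM and *Krt19* at 1.87 FPKM, but *Spp1* at 73.5 FPKM. *Epcam* alone therefore does not measure duct cells. No acinar marker was compared, and the 1 duct marker compared, *Krt7*, had a log2 fold change of 0.14. *Sox10*, which defines Schwann cells, was at 0.208 FPKM in PDX1P33T, and *Gfap* was listed at 0 in every PDX1P33T library. Of the 19329 gene IDs, 18963 were above 0 in at least 4 of the 5 PDX1P33T libraries, and the rest, 366, were at 0 in all. A listed 0 can thus mark a gene removed by the authors' filter on replicates, so whether *Gfap* was absent cannot be told.

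The 8 endothelial markers summed to 51.9, 80.02, 250.2, 93.2, 97.5 and 103 FPKM in wild-type replicates 1 to 6 and to 84.2, 42.7, 60.2, 86.1 and 60.9 FPKM in PDX1P33T replicates 1 to 5. Wild-type replicate 3, the library with the highest *Cd9*, stood far above the rest. The 4 immune markers summed to 22.3, 57.8, 55.9, 26.3, 30.9 and 27.1 FPKM in wild-type and to 27.6, 17.3, 22.0, 27.1 and 24.2 FPKM in PDX1P33T, so that wild-type replicates 2 and 3, the highest for *Npy*, were the highest here too. The 4 stromal markers summed to 3.02, 27.1, 5.72, 1.505, 1.46 and 2.79 FPKM in wild-type and to 3.23, 1.92, 2.08, 3.19 and 1.99 FPKM in PDX1P33T, with wild-type replicate 2 highest. The 4 Schwann and neural markers summed to 1.58, 5.87, 3.06, 2.31, 2.63 and 3.08 FPKM in wild-type and to 1.65, 0.798, 1.10, 1.51 and 0.953 FPKM in PDX1P33T. All wild-type libraries but replicate 1 were above every PDX1P33T library in that sum, as they were for *Npy*, and in PDX1P33T replicates 1 and 4 were highest for both. The 2 PP markers compared were *Ppy* and *Tmem97*. Their sum is nearly all *Ppy*, since *Tmem97* had a mean of 20.1 FPKM in wild-type and 16.6 FPKM in PDX1P33T. The 2 summed to 14959 FPKM in wild-type replicate 3 and to between 6420 and 10082 FPKM in the other wild-type libraries. In PDX1P33T they summed to 9840, 7485, 2933, 7875 and 3042 FPKM in replicates 1 to 5, with replicates 1 and 4 highest. The 2 delta markers compared summed to 4311, 6797, 10590, 7446, 7481 and 7323 FPKM in wild-type. In PDX1P33T their sums were 6695, 5173, 5071, 6429 and 5240 FPKM. The delta sum thus had the same order as *Npy*: all wild-type libraries but replicate 1 were above every PDX1P33T library. The 3 alpha markers compared did not, with 4724 to 11210 FPKM in wild-type and 9039 to 12003 FPKM in PDX1P33T. The part of these cells in the *Npy* and *Cd9* differences was not tested.

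**Figure D4:**
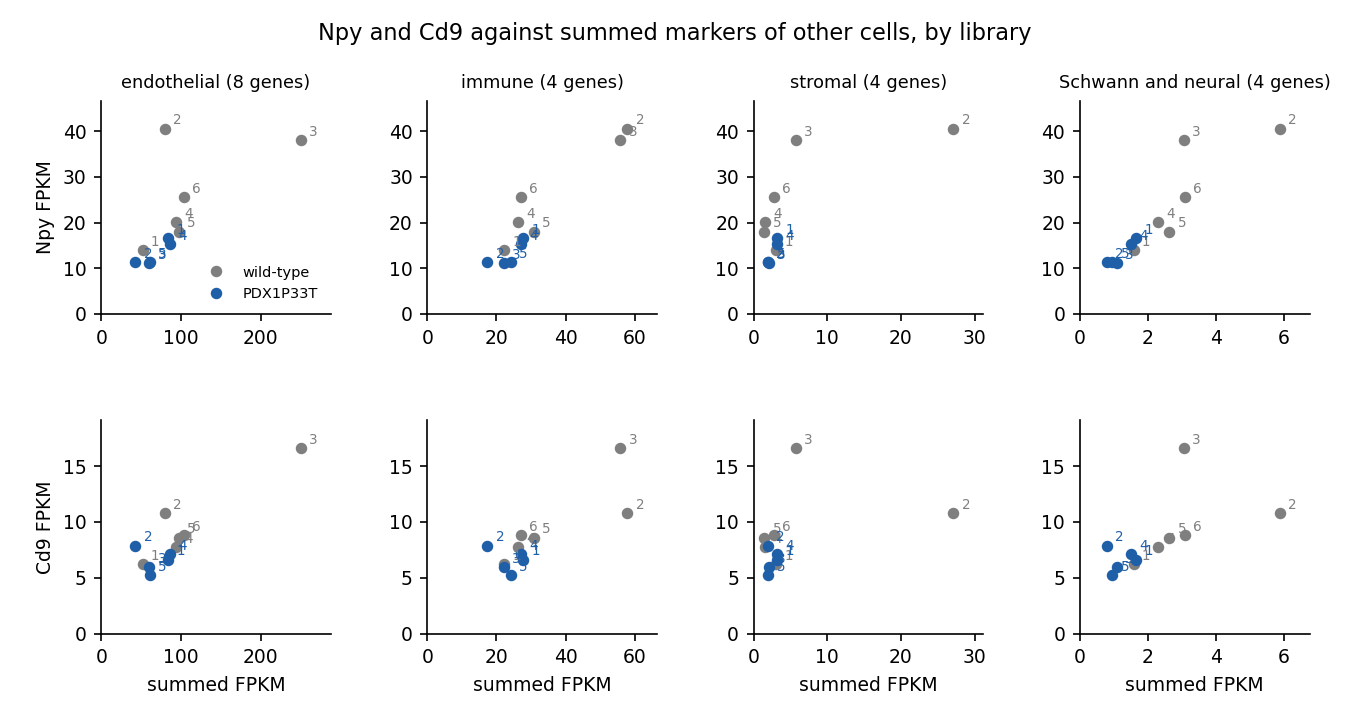
FPKM of *Npy* (upper row) and *Cd9* (lower row) against the summed FPKM of the compared markers of 4 kinds of other cells, with a point for each of the 11 libraries labelled by replicate, wild-type in grey and PDX1P33T in blue. Wild-type replicate 3 is far to the right for endothelial markers, at 250.2 FPKM, and wild-type replicate 2 for stromal markers, at 27.1 FPKM.

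The genes that varied most like the members within a genotype were named by the mean absolute difference of log2(FPKM + 0.1), centred on the genotype mean, over the 11 libraries and 3538 candidates. For *Npy* they were *Rpl28*, a ribosomal protein gene (0.118), *Axl*, a receptor tyrosine kinase (0.120), and *Ctsc*, a lysosomal protease (0.125), where the median candidate was at 0.404. For *Cd9* they were the ribosomal protein genes *Rps15* (0.0622) and *Rpsa* (0.0667), and *C1qtnf4*, a secreted protein (0.0763), against a median of 0.313. For *Igf1r* they included *Gramd1b* (0.0801) and *Spen*, a transcriptional repressor (0.0876), against a median of 0.284. The other 5 genes varied too little within a genotype, with an SD under 0.3 on the log2 scale, to be set beside others.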

How the data were processed

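RNA-seq values of 6 wild-type and 5 PDX1P33T libraries were used. Per the labels and methods, the authors trimmed reads with fastp 0.23.1, aligned them with HISAT2 2.0.5 to GRCm39, counted them with featureCounts 1.5.0-p3, kept genes with a value in 80% of the replicates of a condition, and deposited FPKM. The submitters' notes also list DESeq2 1.20.0. Both unstranded and stranded protocols are described, so overlapping genes are uncertain.

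The members and gene lists were chosen with earlier results of these data known. Wild-type rows were put back by reads for 1712 genes and by recovered gene length and level for others, 4765 in all. A length match needed at least 100 reads, means within 4-fold and no other candidate within 16-fold, and 403 of 403 checked were right. The fit held 4726 genes, 39 listed at 0 in every PDX1P33T library being left out.

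limma 3.58.1 (R 4.3.3, trend and robust) was fitted to log2(FPKM + 0.1) without covariates. Benjamini-Hochberg adjustment covered 19329 gene IDs, with genes not placed taken as unchanged. Single genes were also compared by exact two-sided permutation over 462 splits. Alternatives were 2 other pseudocounts (0.01 and 1), a filter at a mean of 1 FPKM, 2 other scalings, limma without trend and robust, voom weights, replicate blocks, a stricter fold, genes placed by reads alone and each library left out. The labels do not say that libraries came from separate animals, so p-values measure the spread between libraries. Read counts carry counting error only. Named were all 8 members, in each list the genes called, those with groups that did not overlap (at most 3) and the 2 most abundant, the 3 genes most alike to members with an SD of at least 0.3, and the most abundant marker of each cell type. *Rbp7*, *Hk1*, *Crhr1*, *Crhr2*, *Igf1*, *Igf2*, *Foxj1*, *Sox10*, *Gfap*, *Tmem97*, *Krt7*, *Krt19*, *Cftr*, *Spp1*, *Ins1*, *Ngfr*, and the genes sharing a length or bases with a member were added after their values were seen. Some genes that this rule names are not reported here. Python 3.11.15, pandas 2.3.3 and matplotlib 3.10.9 made the tables and plots.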

Additional observations from a re-analysis of the deposited data

Results flagged for a closer look

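Groups of 4 to 10 libraries were searched for a highest or lowest value that stood apart from its group by Dixon's test, which marks about 1 group in 20 by chance. Of 13 groups searched 2 were marked, both for the lowest value among the 5 PDX1P33T libraries and both in replicate 2. *Ucn3* was at 514 FPKM there, with the next library at 599 FPKM, a gap of 0.783 of the whole range. *Igf1r* was at 3.26 FPKM, with the next library at 4.87 FPKM, a gap of 0.890 of the range. The same library held the highest summed acinar markers of its group, 134 FPKM, and the lowest summed endothelial markers compared, 42.7 FPKM. It also held the highest summed beta markers, 334492 FPKM, a sum that rests almost wholly on *Ins2*, *Ins1* and *Iapp*. The part of these sums in the *Ucn3* or *Igf1r* value was not tested.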

How the results depend on the processing

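No log2 fold change of *Npy*, *Cd9*, *Igf1r* or *St8sia1* turned its direction under the 87 alternative values computed, and none of the 4 genes was called in any. Over the fits that lacked 1 library each, the log2 fold change ranged from -1.06 to -0.75 for *Npy*, from -0.63 to -0.35 for *Cd9*, from -0.24 to -0.0030 for *Igf1r* and from 0.28 to 0.40 for *St8sia1*. No gene of the 10 lists was called under any alternative, and the order of the 8 levels in PDX1P33T was the same after rescaling, but the order of their CVs was not: rescaling without the 10 most abundant genes took that of *Ucn3* from 7.499% to 14.4% and that of *Cfap126* from 6.31% to 12.5%. The number of genes called across the table did move. Against 2 genes called higher there was 1 with a pseudocount of 0.01, with the filter at a mean of 1 FPKM, with the block by library names and without wild-type replicates 2 and 3 together, and 0 with the block by the replicate numbers of the titles and where a log2 change of 1.5 or more in size was required, and between 1 and 3 with single libraries left out. There were 3 with median-of-ratios scaling, after rescaling without the 10 most abundant genes and with voom weights. Against 2 genes called lower in the fit as reported there were 1 with the block by titles, 4 after rescaling without the 10 most abundant genes, 4 with voom weights on recovered reads, 1 with genes placed by reads alone, and between 2 and 5 with single libraries left out, with 5 without wild-type replicate 1. The cause was not tested. Same-numbered libraries did not deviate alike from their group means, with correlations of -0.60 to 0.11 by titles. Such correlations cannot show whether libraries were collected or prepared in pairs. By library names the range was -0.60 to 0.12. The block left none of the 4 genes called, and the pairing check rests on the data, not the design. Genes of few reads limit precision, with *Npy* at 152 to 508 and *St8sia1* at 239 to 748 reads per library.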
